A study of Mus musculus with 4 samples.

Results

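The proteasome genes of mouse heart muscle cells were followed from sham operation to pressure overload. Members were taken as every gene whose symbol begins with Psma, Psmb, Psmc, Psmd, Psme, Psmf or Psmg and a number, which gave 51 of the 22322 genes in the files. Of these, Psmc3ip and Psme3ip1 match the letters only and are not proteasome subunits, so 49 genes were used. The 49 fall into 8 genes of the alpha ring, 8 of the beta ring, 3 immunoproteasome genes, 6 genes of the ATPase ring, 11 non-ATPase subunits, 6 activator or inhibitor genes and 7 assembly factors. All but 1 of them passed the filter on low counts: Psmb11, the beta subunit of the thymus, had 0 counts in all 4 libraries, which allows 3 counts a library, or 0.0934 to 0.124 CPM (counts scaled to a common library size), by counting error alone. The comparison therefore covers 48 members among 12499 tested genes.

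The proteasome is the main protease for proteins tagged with ubiquitin. Its barrel-shaped core is built from outer alpha rings and inner beta rings, and 3 of the beta subunits, Psmb5, Psmb6 and Psmb7, carry the cutting activity. A cap made of an ATPase ring (Psmc genes) and non-ATPase subunits (Psmd genes) binds ubiquitin chains, unfolds the protein and feeds it into the core. Interferon signalling replaces the cutting subunits with Psmb8, Psmb9 and Psmb10, which form the immunoproteasome, and other caps (Psme genes) can take the place of the ATPase cap. In heart muscle the proteasome removes damaged and surplus proteins, contractile proteins among them.

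RNA was sequenced from cardiomyocytes that had been freed by Langendorff perfusion, a digestion of the heart through its own vessels. There were 2 sham libraries and 2 libraries after transverse aortic constriction (TAC), a narrowing of the aorta that loads the left ventricle. Per the methods, male mice were operated at 2 months of age and hearts were examined 14 weeks after TAC, while the age given for the cell isolation is also 14 weeks, and the strain was not given in the sources used here. Per the methods, each sample held part of the cardiomyocytes of 1 heart, and the samples came from pairs of sham and TAC mice, without saying which libraries form a pair.

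The libraries held 24237777 to 32118323 counts. Genes encoded in mitochondria took 47.42% of the counts in TAC 1 (95% Wilson interval 47.4% to 47.43%, counting error only) and 39.84% to 40.85% in the other 3 libraries. Levels are given as CPM scaled by TMM, a trimmed-mean scaling between libraries, unless another unit is named. By this scaling the median log2 fold change (TAC minus sham) of all tested genes was -0.01, and by total counts it was -0.20, so a value near 0 by total counts lies above the median gene. Changes are therefore also given relative to that median. Every defining cardiomyocyte marker on the list was present, with a summed level of 75964 and 84716 CPM in the sham and 81495 and 78520 CPM in the TAC libraries.

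Across the complex, proteasome genes sat a little higher in TAC than in sham by TMM scaling, with positive medians in 5 of 7 groups. The median log2 fold change of the 48 members was 0.22, against -0.01 for all tested genes, and 40 of the 48 values were above 0. Both TAC libraries lay above both sham libraries for 37 of 48 members (77.1%), where 29.8% of all tested genes did so. They lay below for 3 members, Psma8, Psmb8 and Psme4, where 30.3% of all tested genes did so. At an unadjusted edgeR p under 0.05, 26 of 48 members (54.2%) were higher in TAC, beside 13.5% of all tested genes. None was lower at that threshold, beside 14% of all tested genes. Markers of other heart cells lay lower in TAC in the same libraries, with median log2 fold changes of -0.88 (leukocyte), -0.62 (endothelial) and -0.83 (fibroblast), every tested marker of the 3 lists below 0, and summed levels given with the immunoproteasome. Their part in the values of the proteasome genes was not tested.

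Few of these single-gene differences passed correction. In the quasi-likelihood test of edgeR, Psmd8 alone had a Benjamini-Hochberg adjusted p under 0.05, 1 of 48 members (2.08%) beside 5.01% of all tested genes. DESeq2 also called Psmd8 alone, while calling 7.37% of all tested genes. The differences were small, between -0.84 and 0.60 on the log2 scale over all tested members. An adjusted p under 0.1 called 13 members (27.1%), all of them core or cap subunits, beside 14.5% of all tested genes.

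The size of the step depended on the scaling. By total counts the median of the 48 members was 0.03, no member was called beside 4.22% of all tested genes, and at an unadjusted p under 0.05 there were 0 members higher and 1 lower. Both TAC libraries then lay above both sham libraries for 8 members (16.7%, background 8.74%) and below for 9 members (18.8%, background 47.7%). Relative to the median of all tested genes, the members' median was 0.23 by TMM and 0.22 by total counts. The sham and TAC libraries differed in mitochondrial share only through TAC 1, and the part of that library in the shift was not tested. With the 13 mitochondrial genes left out of the totals, the median was 0.12 for the members and -0.11 for all tested genes. In the same total-count values TAC 2 stood apart on the other side, with a median of 0.07 for the members and -0.05 in TAC 1 around their mean over the 4 libraries.

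**Figure D1:**
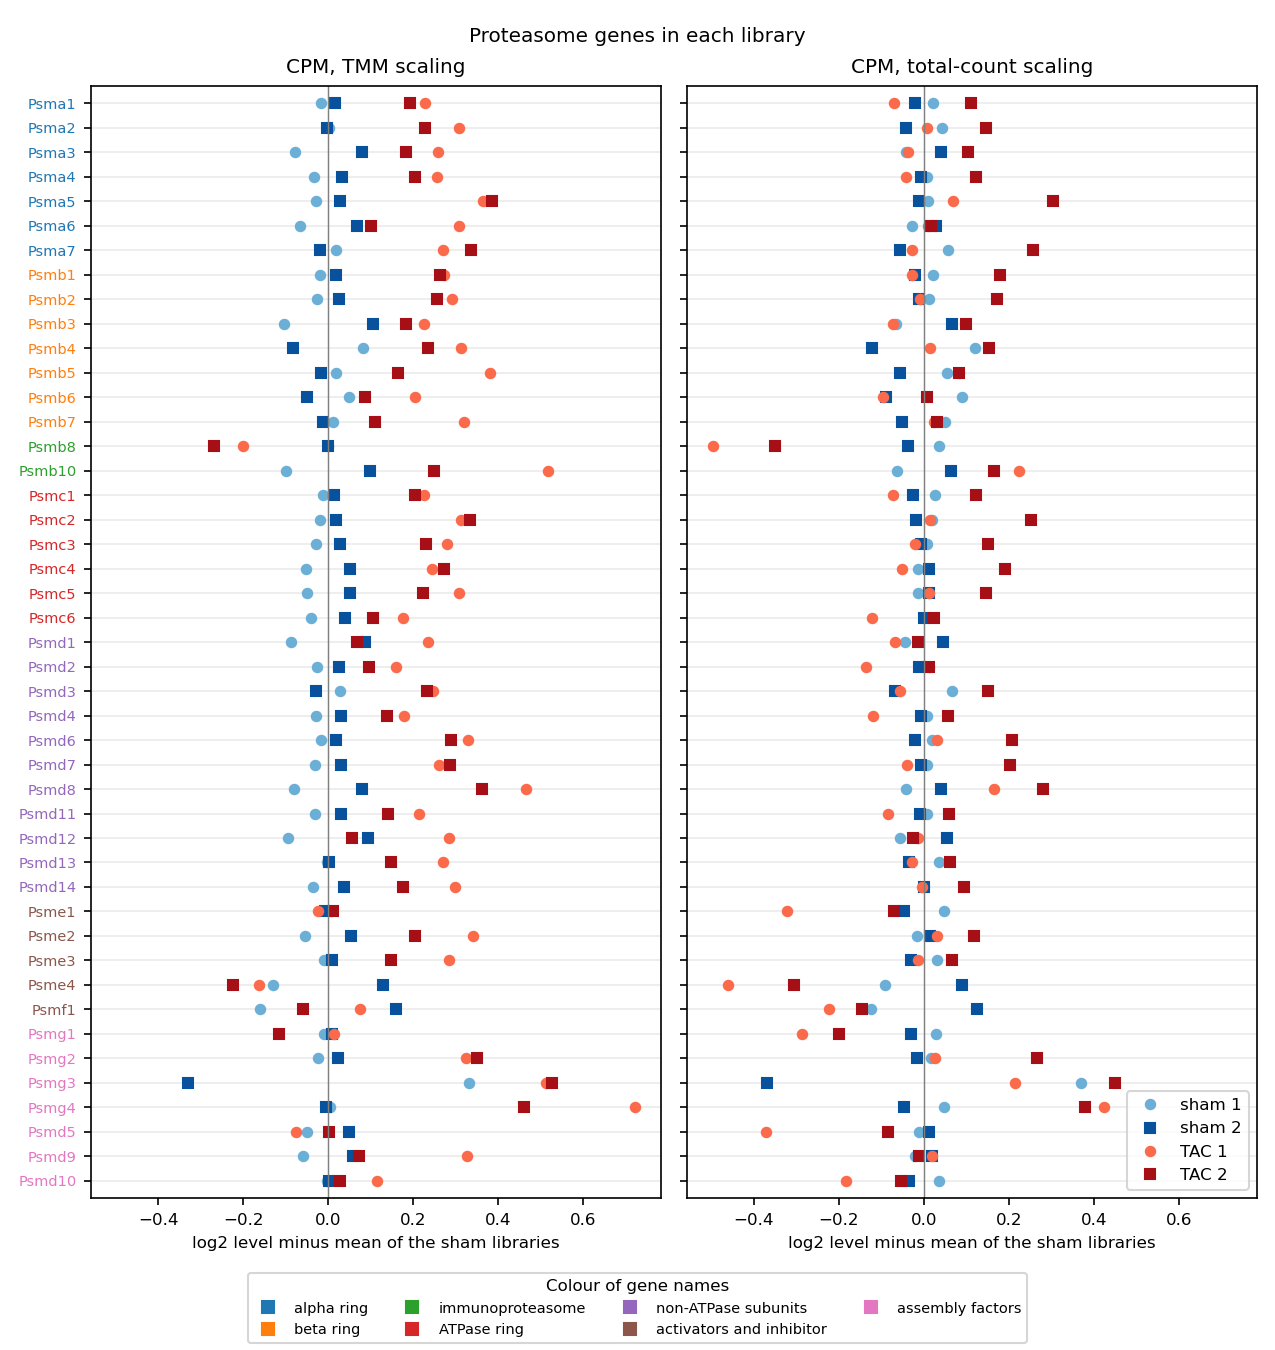
Log2 CPM in each library of 45 proteasome genes (Psma8, Psmb9, Psme2b and Psmb11, with few counts or none, are left out), minus the mean of the sham libraries, by TMM scaling (left) and by total-count scaling (right); circles and squares are replicates 1 and 2, and gene names are coloured by group. On the left most TAC points lie to the right of both sham points, on the right TAC 1 lies above 0 for 16 of the 45 genes, and Psmb8 and Psme4 lie on the left in both.

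In the alpha ring, which forms the gate of the core, 7 of 8 members had a value above 0 and the median was 0.23. Psma5 had the highest value of the ring, at 24.6 and 25.6 CPM in sham and 32.3 and 32.8 CPM in TAC. By TMM the TAC libraries lay together, well above the sham libraries. By total counts Psma5 was at 27 and 26.6 CPM in sham and at 28.1 and 33.1 CPM in TAC, with TAC 1 near sham. Its log2 fold change was 0.38 ± 0.09 (SE), with an edgeR adjusted p of 0.0523, and 0.19 by total counts. The remaining ubiquitous subunits, Psma1, Psma2, Psma3, Psma4, Psma6 and Psma7, had values from 0.21 to 0.30 by TMM. For each of them both TAC libraries were above both sham libraries by TMM (background 29.8%). By total counts 1 of 8 members of the ring (Psma5) had both TAC libraries above (background 8.74%).

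Psma8, the alpha subunit of the testis, was near the limit of detection. It had 18 and 25 counts in the sham libraries and 14 and 7 in the TAC libraries. The TAC values were lower, with a log2 fold change of -0.84 ± 0.51 and an edgeR adjusted p of 0.32, and values of -1.31 to -0.50 when 1 library was left out.

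In the beta ring, which holds the cutting sites, all 7 tested members had both TAC libraries above both sham libraries by TMM (background 29.8%). By total counts 1 of 7 did so (background 8.74%). The median of the ring by TMM was 0.27. Psmb5, the subunit with chymotrypsin-like activity and the target of proteasome inhibitor drugs, had 42 and 41 CPM in sham and 54 and 46.5 CPM in TAC. TAC 1 was the highest library and TAC 2 lay nearer to sham. The log2 fold change was 0.28 ± 0.09 (adjusted p = 0.117, edgeR), it was 0.38 without TAC 2 (adjusted p = 0.041) and 0.16 without TAC 1.

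Psmb6, the caspase-like subunit, had the lowest value of the ring, with 46.2 and 43.1 CPM in sham against 51.4 and 47.4 CPM in TAC. The gap between the groups was about 1 CPM, and the log2 fold change of 0.15 ± 0.08 (adjusted p = 0.302, edgeR) turned to -0.05 by total counts and was 0.09 without TAC 1. Psmb7, the trypsin-like subunit, had 71.1 and 70 CPM in sham and 88.1 and 76.2 CPM in TAC. Here the TAC libraries were further from each other than the sham libraries were, and the log2 fold change was 0.22 ± 0.09 (adjusted p = 0.162, edgeR). It was 0.11 without TAC 1, 0.32 without TAC 2 and 0.03 by total counts. Psmb1, Psmb2, Psmb3 and Psmb4, which carry no cutting activity, had values from 0.20 to 0.27.

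**Figure D2:**
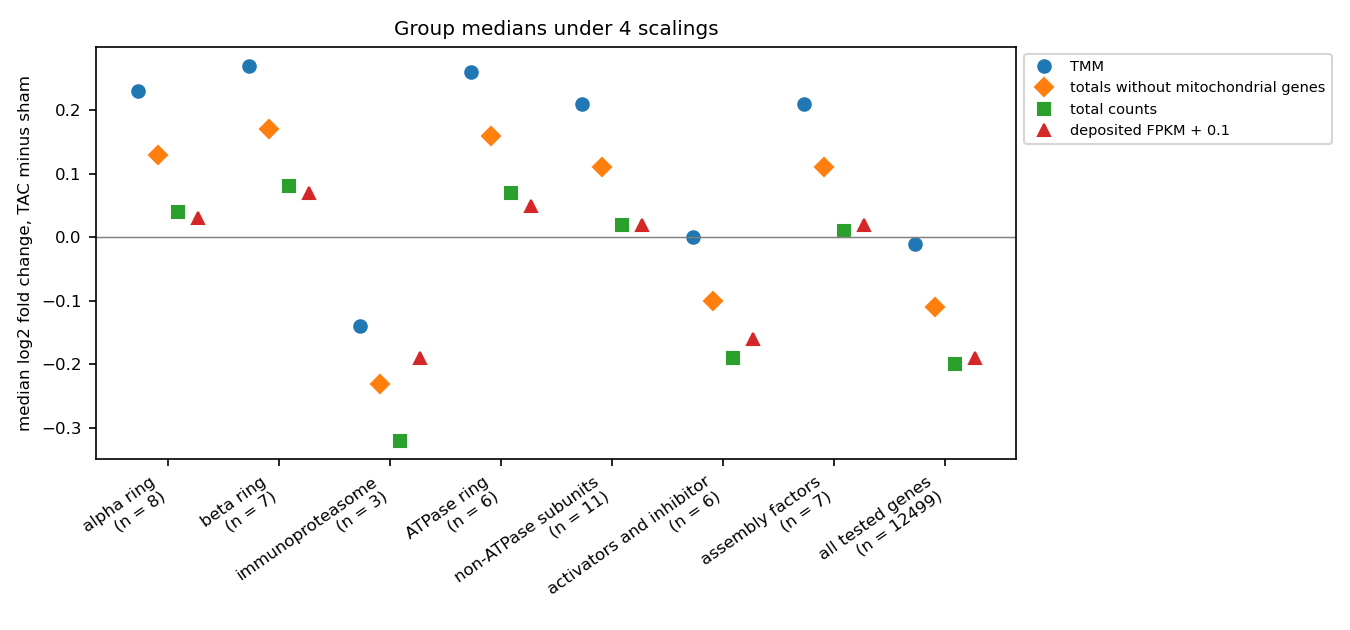
Median log2 fold change (TAC minus sham) of each proteasome group and of all tested genes under 4 scalings, with the number of tested genes on the x axis. The alpha ring, beta ring, ATPase ring, non-ATPase subunits and assembly factors lie at 0.21 to 0.27 by TMM and at 0.01 to 0.08 by total counts, while the activators and inhibitor stay close to all tested genes and the immunoproteasome lies below them in 3 of the 4 scalings.

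In the ATPase ring, which unfolds proteins, all 6 members had both TAC libraries above both sham libraries by TMM (background 29.8%). By total counts 0 of 6 did so (background 8.74%). The median of the ring by TMM was 0.26, and 5 of 6 were higher at an unadjusted edgeR p under 0.05 (background 13.5%). Psmc2 was at 51.7 and 53.1 CPM in sham and at 65.1 and 66 CPM in TAC. By TMM the groups were clearly apart and the replicates of each group were within 2 CPM of each other. By total counts Psmc2 was at 56.7 and 55.2 CPM in sham and at 56.5 and 66.6 CPM in TAC. There TAC 1 lay between the sham libraries. The log2 fold change of Psmc2 was 0.32 ± 0.07 by TMM, with an edgeR adjusted p of 0.0509, and 0.14 by total counts.

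Psmc6 had the lowest value of the ring, with 68 and 71.8 CPM in sham and 79 and 75.2 CPM in TAC. The log2 fold change of 0.14 ± 0.08 (adjusted p = 0.265, edgeR) was -0.05 by total counts. By the second measure the TAC libraries lay on either side of the sham libraries.

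Among the non-ATPase subunits, which include the ubiquitin receptor Psmd4 and the deubiquitinase Psmd14, all 11 values were above 0 by TMM and the median was 0.21. Psmd8, a lid subunit, was the member called. It was at 51.5 and 57.5 CPM in sham and 75.1 and 69.9 CPM in TAC, counted from 1630, 1655, 2093 and 1710 fragments. Both TAC libraries were well above both sham libraries by TMM, and they were also the higher ones by total counts.

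The log2 fold change of Psmd8 was 0.41 ± 0.09, with an edgeR adjusted p of 0.0442. This call sat close to the threshold. The value was 0.22 by total counts (adjusted p = 0.293) and 0.41 with a replicate block (adjusted p = 0.0574), and without sham 1 or without TAC 1 the adjusted p was 0.133. DESeq2 gave an adjusted p of 0.0109. In Psmd2, a scaffold subunit of the cap with the lowest fold change of the group, the values were 159 and 165 CPM in sham and 181 and 173 CPM in TAC. Its log2 fold change of 0.13 ± 0.07 (adjusted p = 0.27, edgeR) became -0.06 by total counts. Psmd6 came second in the group, at 39.6 and 40.6 CPM in sham and 50.4 and 49 CPM in TAC, with a log2 fold change of 0.31 ± 0.08 (adjusted p = 0.0634, edgeR).

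Psmd8 lies on chr7:29174188-29180701 (minus strand, GRCm38, GENCODE vM21). Promoter sequences of RefSeq on GRCm38.p6, running from 250 bases before to 50 bases after each start, were matched to 41 of the 49 members, with 44 promoters. The letters CGGAAG, a core of ETS factor sites, were found on either strand in 23 of the 44 (52.3%) and in 16.9% of all 32851 promoters in the table. In all, 12 letter patterns were searched, and this one was settled on after the shares of related patterns had been seen, so the share is a description. The overlapping patterns CCGGAAG and ACTTCCG were each in 34.1% of member promoters and in 8.86% and 6.42% of all promoters. TGACNNNGC, the core of the element bound by Nrf1 and Nrf2, was in 13.6% against 12.4%, and CCAAT was in 31.8% against 37.4%. Also above the share of all promoters were GCGCNTGCGC (15.9% against 4.6%) and GAAANNGAAA (11.4% against 3.44%), in 7 and 5 member promoters. Closer to it were GGGANNNNCC (22.7% against 20.7%), TGATNNNGC (9.09% against 8.09%) and TGACNNNGCA (4.55% against 3.04%). Below it were TATAAA (9.09% against 13.6%) and TTCNNNGAA (6.82% against 8.3%).

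Each printed sequence starts 180 bases before the first annotated start of the gene in RefSeq or GENCODE and ends 20 bases from it on. Psmd8 and Psmd6 are shown for the highest fold changes among the non-ATPase subunits, Psmb5 as the main cutting subunit, and Psme4 as the most abundant member in CPM. Capitals mark a match to one of the 12 patterns: ACTTCCG in Psmd8, TATAAA and CCGGAAGT in Psmd6, TGACGTCGC in Psmb5 and CCGGAAGT in Psme4. They lie on chr7:29180682-29180881 (minus strand), chr14:14120965-14121164 (minus strand), chr14:54618003-54618202 (minus strand) and chr11:30771546-30771745 (plus strand), in that order.
Psmd8: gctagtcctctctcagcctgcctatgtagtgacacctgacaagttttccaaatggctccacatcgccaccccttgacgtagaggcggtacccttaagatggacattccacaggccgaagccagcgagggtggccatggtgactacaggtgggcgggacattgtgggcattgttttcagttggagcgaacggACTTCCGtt
Psmd6: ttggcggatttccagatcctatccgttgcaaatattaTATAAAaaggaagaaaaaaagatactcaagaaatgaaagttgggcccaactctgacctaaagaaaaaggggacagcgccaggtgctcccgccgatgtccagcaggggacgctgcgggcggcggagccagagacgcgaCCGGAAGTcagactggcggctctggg
Psmb5: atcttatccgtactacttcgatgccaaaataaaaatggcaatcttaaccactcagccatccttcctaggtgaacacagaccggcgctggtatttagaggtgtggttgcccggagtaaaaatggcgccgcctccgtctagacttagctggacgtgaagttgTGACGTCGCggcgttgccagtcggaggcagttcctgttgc
Psme4: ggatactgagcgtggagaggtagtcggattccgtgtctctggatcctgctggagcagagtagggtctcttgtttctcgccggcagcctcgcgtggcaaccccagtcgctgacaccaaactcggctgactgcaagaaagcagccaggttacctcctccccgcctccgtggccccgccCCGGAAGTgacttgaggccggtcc
The CGGAAG core is held by the printed bases of Psmd8, Psmd6 and Psme4 and not by those of Psmb5. In all, 22 member genes hold it, and its relation to the fold changes was not tested.

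The activators and the inhibitor lay near the median gene. Their median by TMM was 0.00, with 3 of 6 values above 0, and none passed correction by edgeR or DESeq2. At an unadjusted edgeR p under 0.05, 2 of 6 (Psme2 and Psme3) were higher (background 13.5%). Relative to all tested genes the median was 0.01 by TMM and by total counts. Psme4, also called PA200, caps the core and opens it without ubiquitin, and it has been tied to the breakdown of acetylated histones. At 382 and 457 CPM in sham and 373 and 358 CPM in TAC it had the highest CPM of all members. Both TAC libraries were below both sham libraries, although TAC 1 and sham 1 nearly met. Its log2 fold change was -0.20 ± 0.10 (adjusted p = 0.24, edgeR), -0.38 by total counts (adjusted p = 0.0987), -0.06 without sham 2 and -0.32 without sham 1.

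Psme1 and Psme2 encode the alternating subunits of the 11S cap, which interferon also raises. Psme1 had 61.4 and 60.8 CPM in sham and 60.1 and 61.6 CPM in TAC. The 4 libraries were within 2 CPM of each other, and the log2 fold change was -0.01 ± 0.07 (adjusted p = 0.967, edgeR). Psme2 had 16.9 and 18.2 CPM in sham and 22.2 and 20.2 CPM in TAC, with a log2 fold change of 0.27 ± 0.10 (adjusted p = 0.151, edgeR). The ratio of Psme1 to Psme2 in FPKM, a level per transcript length, was 3.1 and 2.78 in sham and 2.31 and 2.59 in TAC, lower in both TAC libraries. The log2 difference was -0.26, and its exact two-sided permutation p of 0.333 is the smallest that 2 libraries against 2 can give. This pair was chosen after the values were seen. Psme2b, a near-identical copy, had estimated counts of 14.02, 14.55, 14.10 and 8.47. Its counts and those of Psme2 were not whole, while their sums were whole to the deposited decimals in every library (550, 540, 632 and 503), so the division between them is uncertain.

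Psme3, the nuclear activator, had 40.8 and 41.3 CPM in sham and 50 and 45.5 CPM in TAC. The TAC libraries were higher by TMM, with a log2 fold change of 0.22 ± 0.08 (adjusted p = 0.148, edgeR), and at 0.03 by total counts. Psmf1, an inhibitor of the core, had 12.5 and 15.6 CPM in sham and 14.7 and 13.4 CPM in TAC. The TAC libraries lay between the sham libraries, at a log2 fold change of 0.00 ± 0.14 (adjusted p = 0.999, edgeR).

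The immunoproteasome genes were expressed at low levels and did not move together. None of the 3 passed correction by edgeR or DESeq2, and their values ranged from -0.23 to 0.39. Of the 3, 1 (Psmb10) was higher at an unadjusted edgeR p under 0.05 (background 13.5%). Psmb8, which replaces Psmb5, had 112 and 102 counts in sham and 86 and 72 in TAC, or 3.54 and 3.54 CPM against 3.08 and 2.94 CPM. Both TAC libraries were below both sham libraries by TMM (background 30.3%) and by total counts (background 47.7%). The log2 fold change was -0.23 ± 0.20 (adjusted p = 0.488, edgeR), with a range of -0.43 to -0.20 over all alternatives.

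Psmb9, which replaces Psmb6, had only 26 to 38 counts per library, at 0.916 and 1.32 CPM in sham and 0.968 and 1.06 CPM in TAC. The TAC libraries lay inside the range of the sham libraries (log2 fold change -0.14 ± 0.37, edgeR adjusted p = 0.841, and -0.38 to 0.15 when 1 library was left out). Psmb9 overlaps Tap1 on the opposite strand, and the use of strand in counting was not given in the sources used here. Psmb10, which replaces Psmb7, had 15 and 17.2 CPM in sham and 23 and 19.1 CPM in TAC. Both TAC libraries were higher by TMM (background 29.8%) and by total counts (background 8.74%). The log2 fold change was 0.39 ± 0.13 (adjusted p = 0.113, edgeR), and it was 0.52 without TAC 2 (adjusted p = 0.0469) and 0.24 without TAC 1.

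Levels per transcript length show how far the constitutive genes outweighed their interferon-responsive counterparts. Psmb8 stood at 3.98, 3.79, 2.61 and 3.14 FPKM in sham 1, sham 2, TAC 1 and TAC 2, beside 51.3, 47.5, 52.2 and 52.1 FPKM for Psmb5. The ratio of the pair was 0.0775 and 0.0799 in sham and 0.05 and 0.0602 in TAC, which put both TAC libraries lower. The log2 difference of -0.52 had an exact two-sided permutation p of 0.333, the smallest possible with 2 against 2. For Psmb9 over Psmb6 the ratios were 0.0117 and 0.0182 in sham and 0.0116 and 0.0145 in TAC, and the groups overlapped (log2 difference -0.16, exact permutation p = 0.667). Without sham 1 the difference was -0.48 and without sham 2 it was 0.16. Psmb10 over Psmb7 gave 0.186 and 0.218 in sham and 0.231 and 0.221 in TAC, a log2 difference of 0.17 (exact permutation p = 0.333), which was 0.05 without sham 1 and 0.28 without sham 2. In every library Psmb10 was thus the most abundant of the 3 relative to its counterpart, and Psmb9 the least. A total of 7 ratios were computed, those to the core median included, and the exact permutation test cannot pass 0.05 for any of them.

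**Figure D3:**
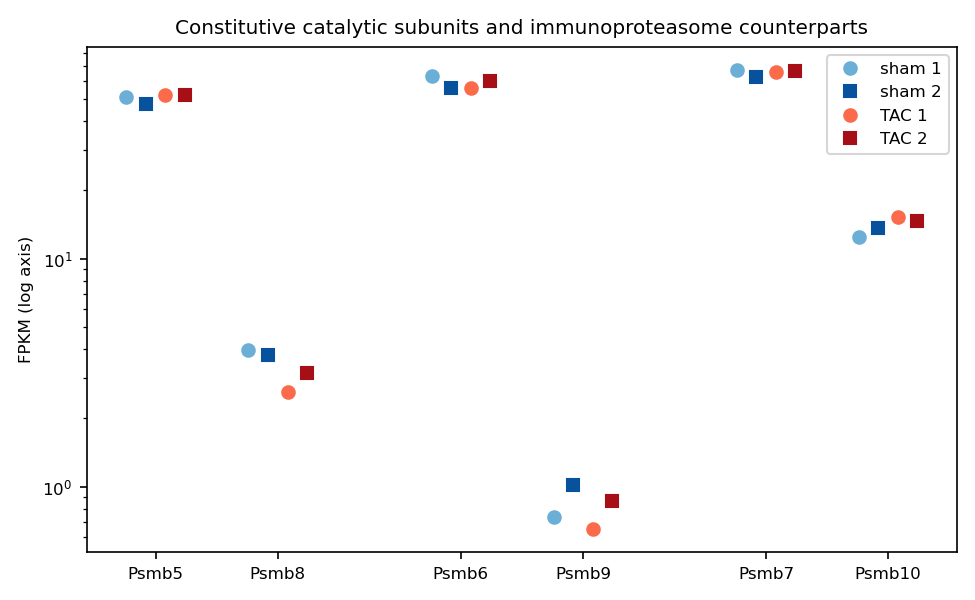
Deposited FPKM (log axis) of the 3 constitutive cutting subunits and of the immunoproteasome subunit that replaces each, with 1 point per library. Psmb8 is lower in both TAC libraries (2.61 and 3.14) than in both sham libraries (3.98 and 3.79), Psmb9 overlaps, and Psmb10 is higher in TAC (15.2 and 14.7) than in sham (12.5 and 13.6).

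Genes of the interferon response and of antigen processing had a median log2 fold change of 0.16 by TMM, with 11 of 18 values above 0. By total counts the median was -0.04. The edgeR test called 0 of 18, beside 2.58% of all tested genes called higher and 2.43% called lower. At an unadjusted p under 0.05, 5 of 18 were higher (background 13.5%) and 0 lower (background 14%), and DESeq2 called 1 higher (background 3.55%). B2m, the light chain of MHC class I, had 66.9 and 66.8 CPM in sham and 111 and 82.9 CPM in TAC (log2 fold change 0.54 ± 0.13, edgeR adjusted p = 0.0577). Over the 12 alternatives its adjusted p ran from 0.00226 to 0.155 and was under 0.05 in 6. It was not called by total counts (0.33, adjusted p = 0.139) or without TAC 1 (0.31, adjusted p = 0.144). Nlrc5, the activator of MHC class I genes, had 1.99 and 1.77 CPM in sham and 4.02 and 2.66 CPM in TAC (0.83 ± 0.28, edgeR adjusted p = 0.115), and its value was 0.50 without TAC 1 and 0.38 in FPKM with 0.1 added. Tap1, a peptide transporter that shares the locus of Psmb9, had values of 3.57, 3.86, 5.85 and 4.5 CPM (0.48 ± 0.20, edgeR adjusted p = 0.176), and its value was 0.28 without TAC 1 and by total counts. Irf1, a transcription factor of the interferon response, was at -0.27 ± 0.16 on the log2 scale, with an edgeR adjusted p of 0.302.

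White blood cells carry much immunoproteasome RNA, so their markers stand beside these values. All 14 tested leukocyte markers had a log2 fold change below 0, with a median of -0.88 and no call by edgeR, while 6 were lower at an unadjusted p under 0.05 (background 14%) and 1 was called lower by DESeq2 (background 3.82%). Their summed level was 123 and 64.9 CPM in sham and 35.6 and 67 CPM in TAC, while Cd3e had no count in 3 of the 4 libraries. All 12 endothelial markers were below 0, with 4 called lower by edgeR (background 2.43%), 8 by DESeq2 and 11 lower at an unadjusted p under 0.05. All 12 fibroblast markers were below 0 as well, with 4 called lower by edgeR, 4 by DESeq2 and 9 lower at an unadjusted p under 0.05. Summed endothelial levels were 677 and 550 CPM in sham and 334 and 457 CPM in TAC, and summed fibroblast levels were 526 and 364 CPM in sham and 203 and 283 CPM in TAC. In bulk RNA, fewer cells of a type and less RNA per cell cannot be told apart, and the part of these cells in the values of Psmb8 and Psmb9 was not tested.

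No assembly factor was called by edgeR or DESeq2, and 1 of 7 (Psmg2, 14.3%) was higher at an unadjusted p under 0.05, a share near the background of 13.5%. Their values ranged from -0.05 to 0.60 by TMM. There 5 of 7 had both TAC libraries above both sham libraries (background 29.8%) and 0 below (background 30.3%). By total counts 2 of 7 lay above (background 8.74%) and 3 of 7 (Psmg1, Psmd5 and Psmd10) below, 42.9% beside 47.7% of all tested genes. Psmg1 and Psmg2 form one chaperone of the alpha ring, and the difference between them was not tested. Psmg1 had 8.37 and 8.48 CPM in sham and 8.5 and 7.77 CPM in TAC, with overlapping groups (log2 fold change -0.05 ± 0.14, edgeR adjusted p = 0.844). Psmg2 had 12.5 and 12.9 CPM in sham and 15.9 and 16.2 CPM in TAC, with groups apart (0.34 ± 0.11, edgeR adjusted p = 0.1).

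The partner chaperone genes Psmg3 and Psmg4 were scarce. For Psmg3 there were 80 and 46 counts in sham and 80 and 71 in TAC, and sham 2 stood below the other 3 libraries (0.48 ± 0.29, edgeR adjusted p = 0.316, with 0.20 without sham 2 and 0.85 without sham 1). For Psmg4 there were 51 and 46 counts in sham and 74 and 54 in TAC, giving the highest value of any tested member, 0.60 ± 0.27 (adjusted p = 0.195, edgeR). Both SE values were above that of every ring gene apart from Psma8. Of the chaperones of the ATPase ring, Psmd5 had a log2 fold change of -0.03 ± 0.12, Psmd10 of 0.07 ± 0.16 and Psmd9 of 0.21 ± 0.14, and none passed the edgeR test (adjusted p 0.881, 0.801 and 0.377).

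A comparison inside each library does not depend on scaling. The median CPM of the 14 constitutive core genes (Psma1 to Psma7 and Psmb1 to Psmb7) was taken as the reference, and each of the other 34 tested members was expressed relative to it, a description added after the data had been seen. Relative to the core, all tested genes had a median difference of -0.24 on the log2 scale (TAC minus sham), and 57.7% of them had both TAC libraries below both sham libraries, with 7.63% above. Of the 34 members, 12 lay below, 4 lay above and 18 overlapped. The ATPase ring and the non-ATPase subunits mostly overlapped (12 of 17 genes), with differences from -0.10 to 0.18.

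Relative to the core, Psmb8 differed by -0.46 and Psme4 by -0.42, from 8.44 and 10.3 times the core median in sham to 6.84 and 7.08 times in TAC. Psmg1 differed by -0.28, Psmd5 by -0.26, Psme1 by -0.23 and Psmf1 by -0.22, each with both TAC libraries below both sham libraries. On the other side, Psmg4 was ahead by 0.36, Psmd8 by 0.18, Psmg2 by 0.11 and Psmd6 by 0.08. For Psme4, Psme1 and Psmd8 the exact two-sided permutation p was 0.333, the smallest that 2 libraries against 2 can give, and the other differences were not tested.

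**Figure D4:**
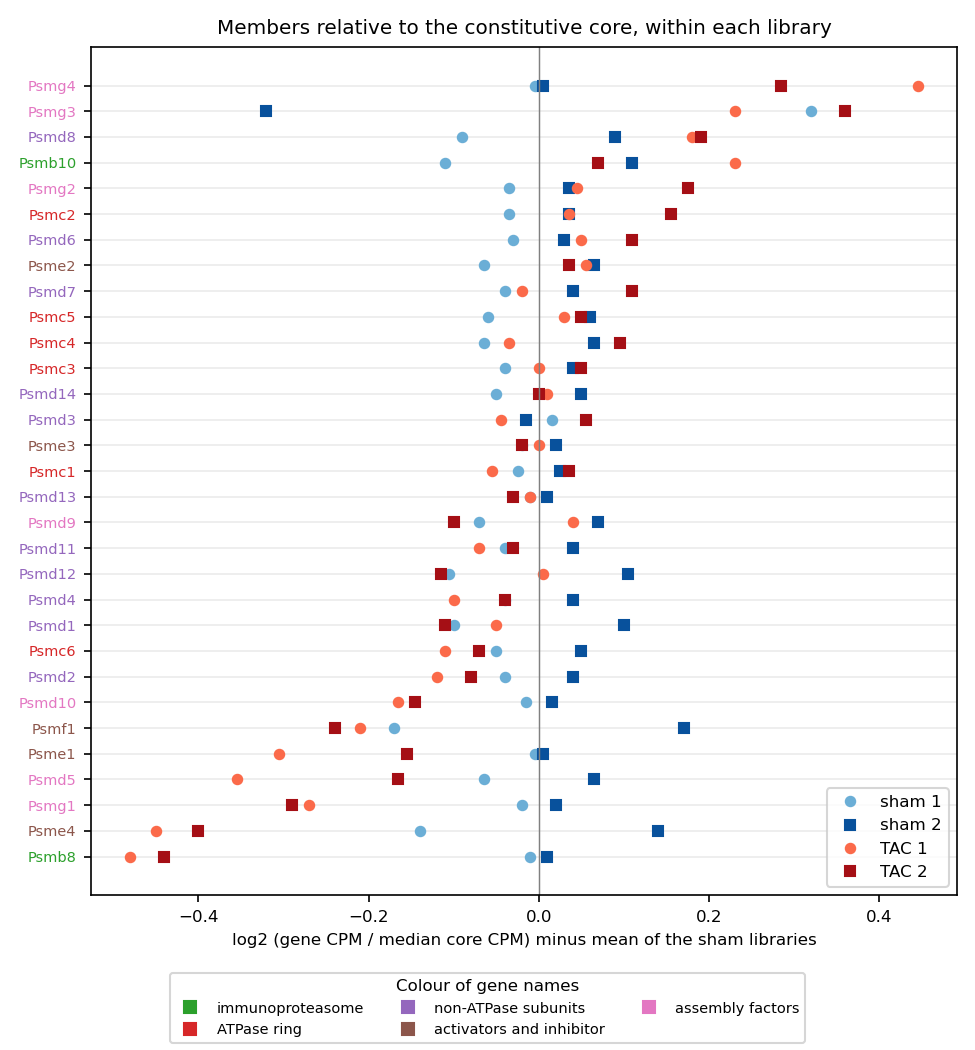
Log2 ratio of each member outside the core to the median CPM of the 14 constitutive core genes in the same library, minus the mean of the sham libraries, in order of the difference between TAC and sham, without Psma8, Psmb9 and Psme2b, which had few counts. Cap subunits crowd around 0, Psmb8, Psme4, Psmg1, Psmd5 and Psme1 have both TAC points to the left, and Psmg4 and Psmd8 have both to the right.

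Subunits that enter the complex in equal numbers were not equal in RNA. In FPKM the constitutive core ran from Psma2, at 17.7 to 19.3, to Psmb7, at 62.7 to 67.2, a ratio of 3.36 to 3.8 within a library. The same genes held both ends of the range in all 4 libraries. The FPKM of Psma2 rested on a length of 2165 to 2416 bases, as read from count over FPKM, against 1160 for Psmb7. That length differed up to 1.12 times between libraries, and Psma2 overlaps AW209491 on the same strand. In the ATPase ring, Psmc4 was lowest at 26.3 to 31.1 FPKM and Psmc3 highest at 75.6 to 85.8 FPKM, a ratio of 2.76 to 2.89. Among the non-ATPase subunits, Psmd11 was lowest at 20.7 to 23 FPKM and Psmd2 highest at 53.1 to 58.9 FPKM. These spreads between partners were larger than any difference between sham and TAC in a core or cap gene. Psme4 ranged from 50.6 to 74 FPKM, so its place among the members differed between libraries. Assembly factors stood below, from 1.95 FPKM for Psmg3 to 15.3 FPKM for Psmg2. The FPKM of Psmd5 and Psmd9 rested on lengths that differed between libraries by up to 1.67 and 1.3 times, as read from count over FPKM, so theirs are not comparable between libraries.

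Other genes of the pathway were taken from a list of 27 genes for further proteasome parts, ubiquitin, shuttles and regulators, of which 26 were in the files and tested. Of these, edgeR called 3 higher (background 2.58%) and 0 lower (background 2.43%), and DESeq2 called 3 higher (background 3.55%) and 0 lower (background 3.82%). At an unadjusted p under 0.05, 9 were higher (background 13.5%) and 0 lower (background 14%), and the median log2 fold change was 0.17 by TMM and -0.02 by total counts. Of the genes called, the values of Pomp are given here.

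Pomp, the maturation chaperone that completes the core and is used up by it, had 39.2 and 43.8 CPM in sham and 63.3 and 53.1 CPM in TAC. It rose by 0.49 ± 0.11 (adjusted p = 0.0479, edgeR). The call was lost by total counts (0.29, adjusted p = 0.172), by totals without mitochondrial genes (adjusted p = 0.0661), with the replicate block (adjusted p = 0.0501), in FPKM (0.15, adjusted p = 0.579 with limma), without sham 1 (adjusted p = 0.0919) and without TAC 1 (adjusted p = 0.144). Adrm1, a ubiquitin receptor of the cap, was at 0.18 ± 0.09, Sem1, a small lid subunit, at 0.29 ± 0.09 and Usp14, a deubiquitinase of the cap, at 0.18 ± 0.08, with edgeR adjusted p of 0.259, 0.105 and 0.195. Without TAC 1 Adrm1 was at 0.10 and Usp14 at 0.11. By total counts Adrm1 was at -0.02, Sem1 at 0.10 and Usp14 at -0.01. Nfe2l1, the transcription factor that raises proteasome genes when the protease is inhibited, had 435 and 451 CPM in sham and 415 and 441 CPM in TAC. Its log2 fold change was -0.05 ± 0.08 (adjusted p = 0.702, edgeR). This is an RNA level, and the part of Nfe2l1 in the values of the members was not tested.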

How the data were processed

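RNA sequencing covered 2 sham and 2 TAC libraries of isolated cardiomyocytes, grouped by title. The deposited values of every gene are an expected count (estimated, so not always whole) and an FPKM, a level per kilobase of transcript and per library size, both made by the authors. The submitters' processing notes name Bowtie2 2.2.8, StringTie 1.3.1 and mm10, with no role given, and the counting program and the use of strand were not given in the sources used here. Of the members and letter matches, 5 had a count that was not whole, to the deposited decimals, in some library.

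Counts were rounded, filtered with filterByExpr, scaled by TMM and tested with the edgeR 4.0.16 quasi-likelihood test in R 4.3.3, adjusted by the Benjamini-Hochberg method over 12499 genes. Scaling by library totals, which the study names, served as an alternative. The common biological coefficient of variation was 10.5%. Replicates differed by more than sampling noise (chi-square per degree of freedom 8.08 for sham and 26.7 for TAC). FPKM was tested with limma 3.58.1 on log2(FPKM + 0.1) and log2(FPKM + 1), a scale that understates changes of low genes, and DESeq2 1.42.0 was a further alternative. Ratios were compared by an exact permutation test. Scripts were tested on simulated data. Pseudogenes were not used.

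The members and lists were chosen with earlier results of these data known. Named were the called members, Psmb5 to Psmb10, Psme1 to Psme4, Psmf1, Psmg1 to Psmg4, the highest and lowest value of every other group, fixed genes of the ubiquitin and interferon lists, and called genes of these lists. Other members are given by counts and ranges, and those named beyond the rule (Psmd6, Psmd5, Psmd9, Psmd10, Psme2b) were chosen after their values were seen. Some genes of these lists are not reported here. Intervals cover counting error only.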

Additional observations from a re-analysis of the deposited data

How the results depend on the processing

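The count of called members and the size of the step depended on the processing. The members called were 1 in the edgeR test and with DESeq2, 0 by total counts, by totals without mitochondrial genes, in both FPKM tests and with the replicate block, 5 with no low-count filter (Psma5, Psma7, Psmc2, Psmd6, Psmd8), 13 at an adjusted p under 0.1, and 0 (without sham 1, without TAC 1) to 3 (without TAC 2) when 1 library was left out. Over all genes, 626 calls became 1676 with no low-count filter, 195 and 214 in FPKM with 0.1 and 1 added, 566 with the replicate block, 1817 at an adjusted p under 0.1, and 301 (without TAC 1) to 1336 (without TAC 2). Members higher at an unadjusted p under 0.05, a count added after the data had been seen, were 26, then 0 by total counts and in both FPKM tests, 10 by totals without mitochondrial genes, 19 with the replicate block and 10 to 28 when 1 library was left out. Both TAC libraries were above both sham libraries for 37 members by TMM, 32 by totals without mitochondrial genes and 8 by total counts and in FPKM.

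By total counts the medians were 0.04 for the alpha ring, 0.08 for the beta ring, -0.32 for the immunoproteasome, 0.07 for the ATPase ring, 0.02 for the non-ATPase subunits, -0.19 for activators and inhibitor, 0.01 for assembly factors and 0.03 for all members. By totals without mitochondrial genes they were 0.13 (alpha), 0.17 (beta), 0.16 (ATPase), 0.11 (non-ATPase), 0.11 (assembly) and 0.12 (all members). In FPKM with 0.1 added they were 0.03 (alpha), 0.07 (beta), 0.05 (ATPase), 0.02 (non-ATPase), -0.16 (activators and inhibitor), 0.02 (assembly) and 0.02 (all members), and with 1 added 0.03, 0.07, 0.05, 0.01, -0.12, 0.01 and 0.02 in the same order. Leaving out 1 library gave 0.20 to 0.28 (alpha), 0.18 to 0.29 (beta), -0.23 to 0.15 (immunoproteasome), 0.21 to 0.30 (ATPase), 0.15 to 0.26 (non-ATPase) and 0.07 to 0.33 (assembly). The cause of these shifts was not tested.

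Of 358 values of 30 named genes under alternatives, 331 stayed on their side of the threshold, 14 lost a call, 13 gained one and 0 turned direction with a call. The deviations of sham 1 and TAC 1 from their group means had a correlation of -0.24. With 2 libraries a group, crossed numbers give the opposite sign by construction, so this value cannot show which libraries form pairs. The numbers were not taken as pairs in the main test. A crossed pairing, picked after seeing this value and so favoured by it, called 13 members and 2131 genes. With 2 libraries a group, the members with the fewest counts (Psmb8, Psmb9, Psmg3, Psmg4, Psma8, Psme2b) had standard errors of 0.20 to 0.51.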

Other observations

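The pair of genes that match the symbol rule by letters only had these values. Psmc3ip, a partner of the meiotic recombinases, had 0.474 and 0.417 CPM in sham and 0.646 and 0.695 CPM in TAC, with a log2 fold change of 0.58 ± 0.44 (adjusted p = 0.418, edgeR). Psme3ip1, which binds the activator Psme3, had 15.4 and 14.6 CPM in sham and 17.1 and 15.2 CPM in TAC, with a log2 fold change of 0.11 ± 0.11 (adjusted p = 0.558, edgeR).

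Among the shuttles that carry ubiquitin-tagged proteins to the proteasome, Ubqln1 and Ubqln2 had values of opposite sign. Ubqln1 had 44.4 and 43.8 CPM in sham and 54.8 and 51.4 CPM in TAC (log2 fold change 0.27 ± 0.08, adjusted p = 0.0865, edgeR), and Ubqln2 had 18 and 14.2 CPM in sham and 12.1 and 14.7 CPM in TAC (-0.27 ± 0.15, adjusted p = 0.294, edgeR). Both were picked after their values were seen, and the difference between them was not tested.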
